A study of Drosophila melanogaster with 2 samples.

Results

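The proteasome subunit genes of Drosophila melanogaster were taken as the protein-coding genes whose symbol begins with Prosalpha or Prosbeta, or with Rpn or Rpt and a digit, in the Ensembl BDGP6 annotation. The rule gave 48 of 13968 protein-coding genes on the 7 chromosome arms. Of these, 32 encode the standard subunits: 7 of the alpha ring and 7 of the beta ring of the 20S core, 10 of the base and 8 of the lid of the 19S regulatory particle. The other 16 are duplicates, marked by a T or an R after the subunit number. Within this rule the symbols, and not any measured value, chose the members. The rule itself was set with earlier results of these data known.

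The data came from ChIP-seq, in which DNA bound by a protein is pulled down with an antibody and sequenced. The flies carried al, the gene of the homeodomain transcription factor Aristaless, fused to eGFP, and an anti-GFP antibody recovered its chromatin from whole embryos aged 0 to 24 h, sonicated to fragments of 200 to 800 bp. There was 1 group of 2 biological replicates, so no contrast between conditions exists, and values are given for the series' list and, where a result turns on them, per replicate. Whole embryos pool every cell type and stage of that day, and libraries that the labels name as possible controls were not analysed here. Signal here means the enrichment value that the authors list for each peak; how it was scaled is unknown, so it served only for ranking and description inside each list.

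The proteasome degrades proteins that carry ubiquitin. The beta rings of the core hold the proteolytic sites, the alpha rings gate the entry, the base unfolds the substrate with ATPases, and the lid removes ubiquitin. The standard subunit genes are active in nearly all cells and are known for coordinated transcription, while many of the duplicates are known from the male germ line. In flies the DNA replication-related element (DRE, bound by the factor DREF) is a promoter motif of housekeeping genes, and a homeodomain protein such as Aristaless binds sites with a TAATTA core.

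Stretches from 5 of the 9 promoters at which the series' thresholded list held a summit are shown first, because most of the 9 lie between a pair of genes on opposite strands. The stretches of Prosalpha3, Prosalpha7, Rpn6 and Rpn13 are not shown, and the Rpn5 summit lies outside its stretch, past the Hat1 TSS. The sequences run 5′ to 3′ on the plus strand of the release 6 genome (dm6) and hold no annotated UTR base, and the letters TATCGATA (DRE) and TAATTA are in capitals. In Rpn3, with the DRE outside the stretch shown, capitals mark a perfect direct repeat of 72 bases, whose copies start 78 bp apart. Rpn12 also has its DRE before the stretch shown, and that of Rpt5 is cut by the start of its stretch, so neither is in capitals. The first 4 stretches lie between the transcription start sites (TSS) of a head-to-head pair, and the Rpn12 stretch is the 150 bp before its TSS. The last stretch, between Npc1a and Prosalpha6, holds both motifs, and no ranked entry lay within 500 bp of the Prosalpha6 TSS.
l(2)37Bb to Rpn3, chr2L:19051613-19051789: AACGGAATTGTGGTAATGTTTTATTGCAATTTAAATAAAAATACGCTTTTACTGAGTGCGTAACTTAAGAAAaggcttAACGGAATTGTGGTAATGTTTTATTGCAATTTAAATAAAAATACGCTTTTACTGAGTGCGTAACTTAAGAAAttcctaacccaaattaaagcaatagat
mRpL39 to Prosbeta2, chr3L:14999667-14999950: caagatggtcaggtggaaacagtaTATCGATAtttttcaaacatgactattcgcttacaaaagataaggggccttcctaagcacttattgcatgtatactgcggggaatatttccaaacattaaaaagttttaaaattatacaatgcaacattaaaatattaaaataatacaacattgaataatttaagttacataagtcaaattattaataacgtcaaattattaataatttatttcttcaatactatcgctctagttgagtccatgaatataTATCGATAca
RanBP3 to Rpt5, chr3R:23752835-23752875: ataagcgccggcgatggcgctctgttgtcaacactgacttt
Hat1 to Rpn5, chr3R:5789385-5789492: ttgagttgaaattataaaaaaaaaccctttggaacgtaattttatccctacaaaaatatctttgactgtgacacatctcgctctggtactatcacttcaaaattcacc
Rpn12 upstream, chr3L:16582878-16583027: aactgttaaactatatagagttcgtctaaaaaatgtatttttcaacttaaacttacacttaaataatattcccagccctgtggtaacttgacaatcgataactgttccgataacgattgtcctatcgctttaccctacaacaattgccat
Npc1a to Prosalpha6, chr2L:10221217-10221350: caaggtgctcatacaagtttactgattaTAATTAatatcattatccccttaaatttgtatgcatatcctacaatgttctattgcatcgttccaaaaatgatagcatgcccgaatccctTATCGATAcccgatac
The stretches are short: 177 bp at Rpn3, 284 bp at Prosbeta2, 41 bp at Rpt5, 108 bp at Rpn5 and 134 bp at Prosalpha6. The Prosbeta2 stretch was 27.1% G and C and held the DRE letters near each of its ends, while the Rpt5 stretch was 53.7% G and C.

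In the series' thresholded list, 9 of the 48 proteasome genes (18.8%) had a summit within 500 bp of an own TSS, beside 18.7% of all protein-coding genes. The members' share was thus close to that of the genome. All 9 were standard subunits (28.1% of 32), and 0 of the 16 duplicates had a summit. By class, 2 of 7 alpha, 1 of 7 beta, 2 of 10 base and 4 of 8 lid genes had one. The replicate 1 list held a summit at 8 members (16.7%), beside 15.5% of all genes, and the replicate 2 list at 6 (12.5%), beside 12.1%. Both replicate lists held one at 5 members (10.4%), namely Prosalpha3, Prosbeta2, Rpn13, Rpn3 and Rpn6, beside 10.9% of all genes. The conservative list gave 10 members (20.8%), beside 17.7% of all genes. It added Prosbeta1, Rpn2 and Rpn11 and left out Rpt5 and Rpn12. Only Prosbeta2, Rpn3, Rpn6 and Rpn13, 4 of the 9, kept a global irreproducible discovery rate (IDR, the expected share of entries that do not repeat between inputs) of at most 0.0001, a stricter limit than the 0.01 of the deposited lists.

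**Figure D1:**
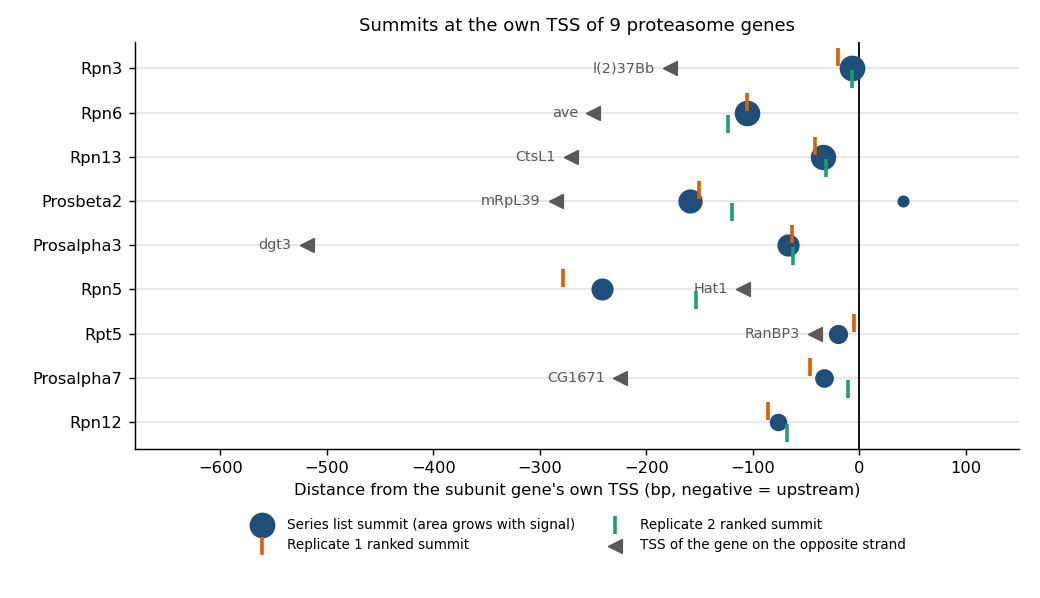
Summits within 500 bp of the own TSS in the series' thresholded list for the 9 genes that had one, ordered by signal. The horizontal axis gives the distance from the own TSS in bp with upstream negative, blue circles are summits of the series list, orange and green ticks are the strongest ranked summits of replicates 1 and 2, and triangles mark the TSS of the gene on the opposite strand. The strongest summit of each gene lies upstream, from 7 bp at Rpn3 to 242 bp at Rpn5, and beyond the Hat1 TSS in Rpn5 alone.

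Among the alpha ring genes, Prosalpha3 (chr2R:20994900-20996118, plus strand) had a summit 67 bp upstream of its TSS with a series signal of 108. The ranked signal there was 59.1 in replicate 1 and 46.5 in replicate 2, and both replicate lists kept it. The TSS of dgt3, a gene of the microtubule-binding augmin complex, lay 519 bp away on the opposite strand, and the summit was 452 bp from it. Prosalpha7 (chr2R:9846636-9847836, minus strand) had a summit 33 bp upstream with a series signal of 67.4. Its ranked signals of 42.7 in replicate 1 and 23.7 in replicate 2 passed the threshold in neither replicate list. Prosalpha7 was thus called only in the lists made from both replicates.

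Prosalpha4 was called in replicate 1 only, with 35.5 at a summit 288 bp upstream and 65 bp from the TSS of kat80, the gene of the katanin p80 subunit. Replicate 2 had 18.9 there, and the series' ranked entry of 57.0 had a global IDR of 0.0239 in the ranking behind the series' list, above 0.01. Prosalpha2 had 42.1 in the series' ranked list, 23.5 in replicate 1 and 21.1 in replicate 2, with no thresholded summit. Prosalpha1, Prosalpha5 and Prosalpha6 had no entry near the own TSS in either replicate.

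Of the beta ring genes, which include the proteolytic subunits, Prosbeta2 (chr3L:14999951-15001319, plus strand) carries the trypsin-like activity. Its summit, with a series signal of 134, lay 159 bp upstream and 126 bp from the TSS of mRpL39, a mitochondrial ribosomal protein gene, so the neighbour's TSS was the nearer one. The ranked signal was 66.0 in replicate 1 and 70.6 in replicate 2, and the replicate summits lay 151 and 120 bp upstream. A second peak of the series list, 41 bp downstream, had a signal of 12.2 and a q value of 0.929 of its own. Prosbeta1, of the caspase-like activity, reached 61.6 in the series' ranked list, with 27.5 in replicate 1 and 35.9 in replicate 2, and the conservative list kept it (global IDR 0.00453). Prosbeta5, of the chymotrypsin-like activity, had a series ranked entry of 12 within 500 bp of its TSS and none there in either replicate. Prosbeta3 had 8.42 in replicate 1 and no entry in replicate 2, and Prosbeta4 and Prosbeta7 had none in either replicate.

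In the 19S base, Rpn13 (chr2R:13958545-13960404, minus strand), a ubiquitin receptor, had a series signal of 151 at 34 bp upstream. Its ranked signal of 95.4 in replicate 1 was the highest of any member in that replicate, and replicate 2 had 58.9. The gene on the other side is CtsL1, which encodes a lysosomal cathepsin, and its TSS was 237 bp from the summit. Rpt5 (chr3R:23752876-23754623, plus strand), an ATPase of the ring that unfolds substrates, had a series signal of 72.8 at 20 bp upstream and 22 bp from the TSS of RanBP3. Replicate 1 had 52.6 there and replicate 2 had no ranked entry, so this summit rests on 1 replicate, and the conservative list lacked it.

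The other base genes had no thresholded summit at their own TSS in the series or replicate lists. The ATPase gene Rpt1 had 39.9 in replicate 1, no entry in replicate 2 and 55.9 in the series' ranked list. The scaffold gene Rpn2 had 27.1 in each replicate and a series ranked entry of 54.2, which the conservative list kept. Rpn1, Rpt2, Rpt3 and Rpt6 had entries between 6.61 and 27.1 in at least 1 replicate. The ubiquitin receptor gene Rpn10 and the ATPase gene Rpt4 had no ranked entry within 500 bp of the TSS in any list, although the TSSs of Rpt4 and mldr lie head to head 58 bp apart.

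The lid genes had the highest share of summits among the classes, and each of the 8 had a ranked entry within 500 bp of its TSS in both replicates. Their median ranked signal was 31.7 in replicate 1 and 29.4 in replicate 2, beside medians of 20.8 and 15.5 over all genes with an entry. These medians were not the highest of the classes: the 4 alpha genes with an entry in replicate 1 had a median of 39.1, and the 2 beta genes with one in replicate 2 had 53.2. Rpn3 (chr2L:19051790-19053681, plus strand) had the highest series signal of any member, 156, at 7 bp upstream, with 79.6 in replicate 1 and 74.8 in replicate 2. The peak, chr2L:19051618-19051947, covers most of the repeat shown above, and how the alignment placed reads from its copies was not tested. Rpn6 (chr2R:14750166-14752910, minus strand) had a series signal of 153 at 106 bp upstream, with 66.6 in replicate 1 and 88.0 in replicate 2. Its partner promoter, 144 bp from the summit, belongs to ave, known from Ras signalling.

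Rpn5 (chr3R:5789493-5791569, plus strand) had a series signal of 106, with 62.4 in replicate 1 and 38.4 in replicate 2, the second below that replicate's threshold. Its summit lay 242 bp upstream, past the TSS of Hat1, a histone acetyltransferase gene, and 133 bp from it. Rpn12 (chr3L:16583028-16584022, plus strand) had the weakest call, a series signal of 55.7 with a q value of 0.119, at 76 bp upstream. Replicate 1 had 19.1 and did not pass, replicate 2 had 33.4 and passed, and the conservative list left it out. It was the 1 member of the 9 with no other TSS within 500 bp of the summit. Of the remaining lid genes, Rpn11, whose product removes ubiquitin from substrates, had 33.3 in replicate 1 and 25.3 in replicate 2 and was in the conservative list. Rpn7, Rpn8 and Rpn9 had 26.7, 30.2 and 20.5 in replicate 1, and 6.91, 12.4 and 17 in replicate 2.

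**Figure D2:**
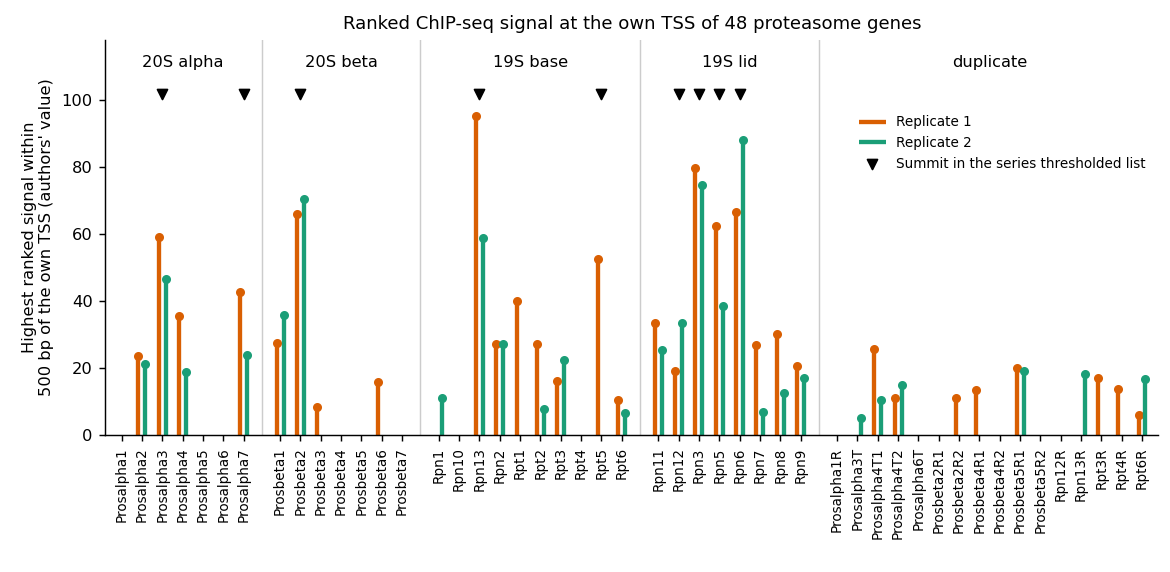
Highest ranked signal within 500 bp of the own TSS for each of the 48 proteasome genes (vertical axis, the authors' value), by subunit class, in replicate 1 (orange) and replicate 2 (green). A missing stem means no ranked entry, and triangles mark the 9 genes with a summit in the series' thresholded list. The 16 duplicates stay at or below 25.7 in replicate 1 and 19.2 in replicate 2, and Rpn13 reaches 95.4 in replicate 1.

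The 9 genes with a series summit had ranked signals between 19.1 and 95.4 in replicate 1 (median 62.4), and the 8 of them with an entry in replicate 2 had 23.7 to 88.0 (median 52.7). Since the same libraries made the series' list, these values describe the members and support nothing. Of the 37 members with neither an own nor a neighbouring summit, 20 had an entry in replicate 1 (6.01 to 39.9, median 20.2) and 17 in replicate 2 (4.91 to 35.9, median 16.8). The ranges of the groups overlap in both replicates. Over all 48 members, 31 had an entry in replicate 1 (64.6%), beside 60.8% of all genes, and 26 in replicate 2 (54.2%), beside 61.5%.

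The strongest own summit, at Rpn3, ranked 906th among the 3822 peaks of the series' list on the arms, and the weakest first summit, at Rpn12, ranked 3247th. The median signal of the 9 was 108, and the median over the 2606 genes with an own summit was also 108. Their strongest summit lay upstream of the own TSS in 9 of 9 genes, beside 90% of all genes with one. The median distance was 67 bp, beside 141 bp over all genes with an own summit. It was 66 bp at the 50 cytoplasmic and 128 bp at the 26 mitochondrial ribosomal protein genes with one.

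None of the 16 duplicates had a thresholded summit at its TSS, inside the gene or within 2 kb of it in the series list or either replicate list. Over all genes, 33.3% had a summit inside or within 2 kb in the series list, 28.1% in replicate 1 and 22.2% in replicate 2. No head-to-head gene lay at 13 of the duplicates, and 11.3% of all genes without one had an own summit in the series list. Ranked entries of the duplicates were weak and none had an IDR of 0.01 or less. The highest series entry was 41.9 at Prosbeta5R1, with 19.9 in replicate 1 and 19.2 in replicate 2, and Prosalpha4T1 had 25.7 in replicate 1. Prosalpha3T, Prosalpha4T2, Prosbeta2R2, Prosbeta4R1, Rpn13R, Rpt3R, Rpt4R and Rpt6R had entries of 4.91 to 18.2 in at least 1 replicate. Prosalpha1R, Prosalpha6T, Prosbeta2R1, Prosbeta4R2, Prosbeta5R2 and Rpn12R had none in either. A low ranked signal in whole embryos does not say how a promoter used in a few cells behaves there.

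Summits at a neighbouring promoter were counted where they lay within 500 bp of another gene's TSS that was itself within 2 kb of the member's TSS, and not within 500 bp of the member's own. In the series' list 3 members had one (6.25%), beside 5.58% of all genes. The replicate 1 list gave 3, beside 4.58%, and the replicate 2 list gave 1, beside 3.39%. The members again differed little from the background.

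Prosbeta6 (chr3L:16609400-16610418, minus strand), a structural beta ring gene, stood between summits and had none of its own. A peak with a signal of 174 lay 1979 bp upstream at CG4101 and Su(P), with 113 in replicate 1 and 61.5 in replicate 2. A peak of 116 lay 1120 bp downstream at CG4098, with 79.2 in replicate 1 and 39.0 in replicate 2. At its own TSS the highest replicate 1 entry was 15.8, and replicate 2 had none. Both neighbouring summits were in both replicate lists, so this was the 1 member with a neighbouring summit in each of the 3 lists.

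Rpn12 had, beside its own weak summit, one of 82.5 that lay 1483 bp upstream and 2 bp from the TSS of Smn, the survival motor neuron gene. Replicate 1 had 57.0 at Smn and replicate 2 had 25.0, the second below the threshold. Rpn2 had one of 57.6 that lay 1653 bp upstream at eIF2D, a translation initiation factor gene, with 41.3 in replicate 1 and 19.6 in replicate 2. The gene that lies head to head with Rpn2, Slbp, shared no thresholded summit with it in the series list.

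Over the gene bodies and 2 kb on either side, 16 members had a series summit (33.3%), beside 33.3% of all genes, and all 16 were standard subunits. Of these 16, 7 (43.8%) had one at another gene's promoter and none at their own, beside 25.2% of all genes with a summit in that range. The same share was 34.1% for mitochondrial and 16.1% for cytoplasmic ribosomal protein genes. Among the 7 members the highest peak at another promoter was the 174 by Prosbeta6. Rpn5, which had an own summit, also had a higher one downstream, at Hpf1, a gene of DNA damage signalling, with a signal of 525 (rank 94 of 3822), 315 in replicate 1 and 214 in replicate 2. That is above the 106 at the Rpn5 promoter itself, and both values come from the same list.

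Of the 7 members with a summit at another promoter and none at their own, 6 had one more than 2 kb downstream of their TSS. The 25.2% of all genes given above refers to the 7, and no share over all genes is given for this distance. After Prosalpha1, the summit at phr and CG30383 had a series signal of 120, with 53.7 in replicate 1 and 55.4 in replicate 2. After Prosalpha2, the summit at Srlp and Aos1 had 81.3, with 45 in replicate 1 and 37.5 in replicate 2. After Prosalpha4, the summit at eas, an ethanolamine kinase gene, had 74.6, with 46.1 in replicate 1 and 30.1 in replicate 2. These alpha ring genes had no thresholded summit of the series' list at their own TSS. After Rpn10, the summit at COX8 and VhaM9.7-b had 101, with 61.2 in replicate 1 and 39.1 in replicate 2. After Rpt6, the summit at SLIRP1 and anox had 98.2, with 53.2 in replicate 1 and 47.7 in replicate 2. After Rpn2, the summit at rdog had 64.6, with 48.6 in replicate 1 and 17.8 in replicate 2. A count of summits within 2 kb of a gene would assign each of these summits to the proteasome gene. Away from any promoter, Prosalpha4 had a further peak of 190 that lay 3253 bp downstream and 944 bp from the eas TSS, with 99.9 in replicate 1 and 89.1 in replicate 2. Prosalpha3 had one of 126 that lay 2376 bp downstream, with 86.7 in replicate 1 and 38.8 in replicate 2. Others were in the replicate 1 list alone. A peak of 40.2 lay 1188 bp upstream of Prosbeta5, with no entry in replicate 2. A peak of 49 lay 1557 bp upstream of Rpn11, with 22.9 in replicate 2.

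**Figure D3:**
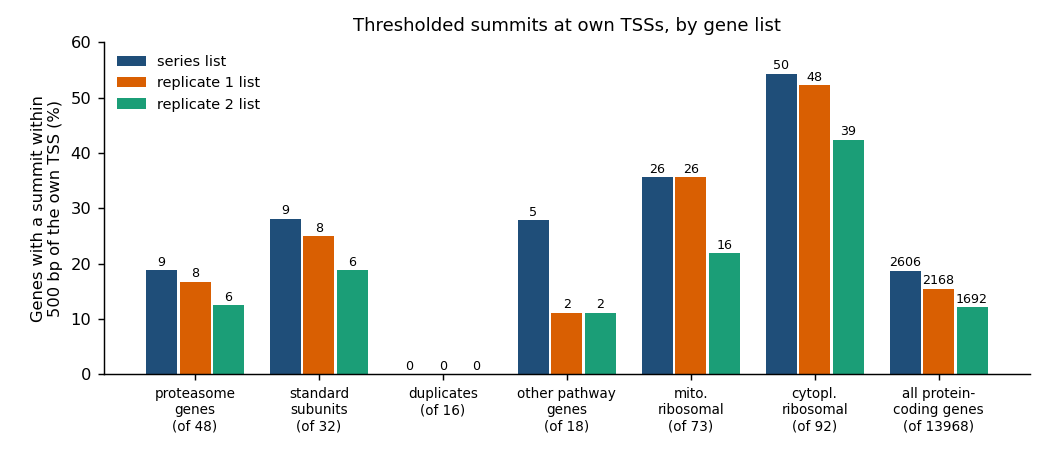
Share of genes with a thresholded summit within 500 bp of an own TSS (vertical axis, %), in the series list (blue), the replicate 1 list (orange) and the replicate 2 list (green), with the number of genes above each bar. Proteasome genes reach 18.8%, 16.7% and 12.5%, next to 18.7%, 15.5% and 12.1% of all protein-coding genes, while the mitochondrial and cytoplasmic ribosomal protein genes reach 35.6% and 54.3% in the series list.

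The ribosome, like the proteasome, is a large complex made in nearly all cells. An own summit in the series' list was found at 18.8% of proteasome genes and 28.1% of the standard subunits, beside 35.6% of 73 mitochondrial and 54.3% of 92 cytoplasmic ribosomal protein genes. The median ranked signal of the standard subunits with an entry was 30.2 in replicate 1 and 24.5 in replicate 2. It was 33.2 and 24.9 for the mitochondrial list, and 50.1 and 35.9 for the cytoplasmic list. These medians leave out genes without an entry, and the shares with one differ. In replicate 2 they were 62.5% of standard subunits, 74% of mitochondrial and 85.9% of cytoplasmic genes. With no entry taken as 0, the standard subunits had medians of 25.1 in replicate 1 and 11.7 in replicate 2. The mitochondrial list then had 22.8 and 15.7, and the cytoplasmic list 47.7 and 27.7. These lists were chosen with earlier results known, and their difference from the members was not tested.

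Proteasome genes often share their promoter region. Of the 48 members, 24 (50%) had a TSS of another gene on the opposite strand within 500 bp upstream, beside 27.3% of all genes. This held for 21 of the 32 standard subunits (65.6%) and 3 of the 16 duplicates (18.8%), and for 72.6% of mitochondrial and 39.1% of cytoplasmic ribosomal protein genes. Of the head-to-head members, 7 of 24 (29.2%) had an own summit, beside 38.1% of all head-to-head genes. Of the other members, 2 of 24 (8.33%) had one, beside 11.3%. Among the standard subunits the counts were 7 of 21 and 2 of 11.

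The shared arrangement runs through most of the called members. Another TSS lay within 500 bp of the strongest own summit in 8 of the 9 genes (88.9%), beside 60.7% of all genes with an own summit. The share was 96.2% for the 26 mitochondrial and 52% for the 50 cytoplasmic ribosomal protein genes with an own summit. The own TSS was the nearest one in 7 of 9 (77.8%), beside 70.6%, the exceptions being Prosbeta2 and Rpn5. A summit between both TSSs of a pair belongs to either gene or to both, and these data cannot tell which. Within 2 kb of their TSSs, 35 members formed 50 pairs with a neighbouring gene, 34 of them on opposite strands. In 8 of these pairs both genes had the same summit within 500 bp, and in 35 neither gene had a summit at any TSS. No share over all neighbouring pairs of the genome is given, so these pair counts describe the members only.

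The DRE letters were searched on both strands in the window from 250 bp before to 50 bp after the 5′-most TSS. They were found at 12 of 48 members (25.0%), beside 9.36% of all genes. All 12 were standard subunits (37.5% of 32), and 0 of 16 duplicates held them. Sites at 8 of them are shown with 10 bases on either side, on the strand of the gene, because the first 4 promoters had an own summit in the series' list and the last 4 had none.
Rpn3, chr2L:19051583-19051610: gttatcggagTATCGATAtcgaaaaggc
Rpn12, chr3L:16582802-16582829: tgttaaaataTATCGATAttaaagcaca
Rpt5, chr3R:23752820-23752847: tcgctgtcacTATCGATAagcgccggcg
Prosbeta2, chr3L:14999931-14999958: catgaatataTATCGATAcaatatcgat
Prosalpha6, chr2L:10221325-10221352: ccgaatccctTATCGATAcccgatacac
Prosbeta6, chr3L:16610445-16610472: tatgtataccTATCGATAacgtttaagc
Rpn7, chr3R:22462034-22462061: cggtataattTATCGATAattttggggt
Rpn9, chr3R:23733419-23733446: cccggttaaaTATCGATAttctcgcgga
In the promoters with an own summit the site began 197 bp upstream of the TSS at Rpn3, 216 bp at Rpn12, 46 bp at Rpt5 and 10 bp at Prosbeta2. In those without one it began 16 bp upstream at Prosalpha6 and 44 bp upstream at Prosbeta6, and 3 bp downstream at Rpn7 and 26 bp downstream at Rpn9. The flanks differ from site to site, and the core letters are the same in both sets because the search required them. Prosalpha3, Prosalpha5, Prosbeta1 and Rpn13 also held the letters, of which Prosalpha3 and Rpn13 had an own summit.

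Of the 12 members with the DRE letters, 6 had an own summit (50%), and of the 36 without them 3 had one (8.33%). Those 36 include the 16 duplicates, which had neither the letters nor a summit. Among the 32 standard subunits alone, 6 of 12 with the letters (50%) and 3 of 20 without them (15%) had an own summit. Over all genes, 29.7% of promoters with the letters and 17.5% of those without had an own summit. Seen from the summits, 6 of the 9 called members held the letters (66.7%), beside 14.9% of all genes with an own summit. The same share was 34% for cytoplasmic and 23.1% for mitochondrial ribosomal protein genes with an own summit. Within 100 bp of the summit itself the letters were found at 4 of the 10 own summits of members, which count both Prosbeta2 peaks. Over all 3822 summits the share was 4.37%, but these include summits away from promoters, so the comparison is not like for like. The 6 genes are Prosalpha3, Prosbeta2, Rpn3, Rpn12, Rpn13 and Rpt5. In the cytoplasmic ribosomal list 60.7% of promoters with the letters and 51.6% of those without had a summit, and in the mitochondrial list 40.0% and 34.5%. A match describes letters and is no evidence that DREF or Aristaless binds there.

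**Figure D4:**
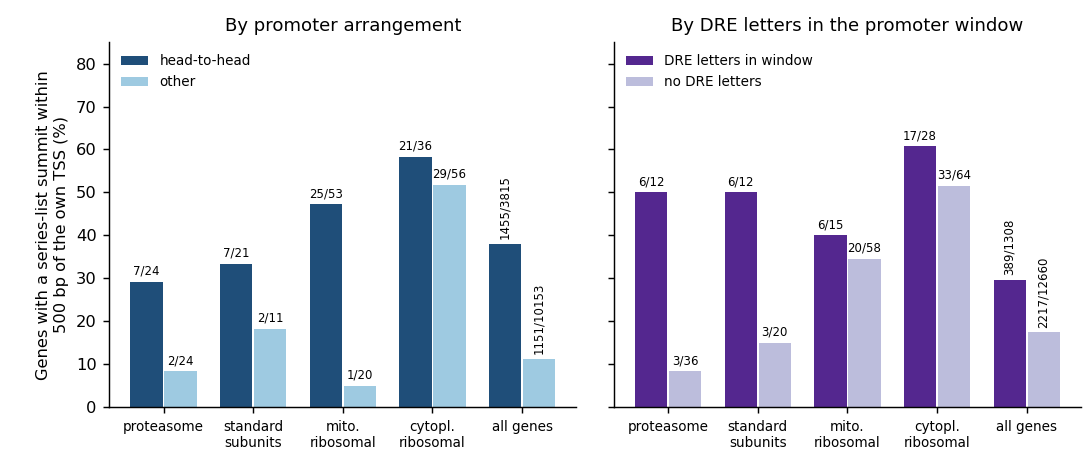
Share of genes with a series-list summit within 500 bp of the own TSS (vertical axis, %), split on the left by whether another gene starts on the opposite strand within 500 bp upstream, and on the right by whether the promoter window holds TATCGATA. Labels give genes with a summit over genes in the bar. Head-to-head members show 7 of 24 and others 2 of 24, and members with the DRE letters 6 of 12 and others 3 of 36, or 3 of 20 among the standard subunits.

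The TAATTA core of homeodomain sites was found at 5 members (10.4%), beside 20.5% of all genes: Prosalpha6, Prosbeta4, Rpt1, Prosalpha4T2 and Prosalpha6T. None of the 9 called members held it in the promoter window, beside 24.8% of all genes with an own summit, and it lay within 100 bp of 1 of the 10 own summits of members, beside 17.7% of all summits. Its absence from a window says nothing of Aristaless binding. Motif 1 (GGTCACACT), a core promoter element of housekeeping genes, was found at 5 members (10.4%), all standard subunits, beside 6.04% of all genes. It was found at 0 of the 9 called members, beside 8.21% of all genes with an own summit. GAGAG letters, as in sites of GAGA factor, were found at 9 members (18.8%), beside 29.8%, and 6 of these were duplicates. The letters TGACNNNGC, known for CNC factors in mammals, were found at 6 members (12.5%), beside 8.63%, none of them called, and the E-box CACGTG at Rpt3R alone, beside 4.23% of all genes. No string is contained in another of the set.

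Outside the subunits, 5 of 18 genes that assemble, feed or regulate the proteasome had an own summit in the series' list (27.8%), beside 18.7% of all genes. Each replicate list held one at 2 of the 18 (11.1%), beside 15.5% of all genes in replicate 1 and 12.1% in replicate 2. Pomp, whose product helps to assemble the core, had the highest signal, 164, with 105 in replicate 1 and 63.1 in replicate 2, and was in both replicate lists. The gene cnc, which encodes a factor known to raise proteasome genes in flies, had 104, with 68.3 in replicate 1 and 29.5 in replicate 2, and was in the replicate 1 list. The ubiquitin-activating enzyme gene Uba1 had 72.4, with 30 in replicate 1 and 33.7 in replicate 2. Ufd1 and TER94, whose products extract ubiquitylated proteins, had 58.3 and 57.2. Ufd1 had 29.8 in replicate 1 and 29.2 in replicate 2, and TER94 had no entry in replicate 1 and 35.3 in replicate 2. None of these last 3 was in either replicate list.

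The polyubiquitin gene Ubi-p63E had ranked signals of 61.3 in replicate 1 and 85.7 in replicate 2 and was in the replicate 2 list only. For maf-S, a partner of cnc, a summit of 64.3 lay at the neighbouring promoter of CG11110 and none at its own TSS. No thresholded summit at the own TSS was found in these lists for PI31, REG, Uch-L5, Sem1, Usp14, Npl4, Ubi-p5E, Rad23, Ubqn, rngo and Pngl. Their ranked signals reached at most 33.4 in replicate 1 (Pngl) and 27.2 in replicate 2 (PI31).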

How the data were processed

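ChIP-seq peaks of 2 biological replicates of 1 group were used. The assembly is dm6, per the labels. The authors deposited for each peak a signal value, a −log10 q value and a summit offset in bp, and for ranked entries a −log10 global IDR. Which aligner, peak caller and filters they ran is not stated in the sources read. The lists hold no counts, so the depth is unknown and no interval is given.

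Summits on 7 arms were set against TSSs of protein-coding transcripts (Ensembl release 115, BDGP6.54) with Python 3.11.15, numpy 2.4.6 and pandas 2.3.3. The series' list held 3822 peaks there, the conservative list 3473, replicate 1 2982 and replicate 2 2090. Of the series' peaks 942 (24.6%) had an own q above 0.05. Replicate signals come from each replicate's ranked list; series ranked signals come from the ranking in which all 3473 conservative peaks have an IDR of at most 0.01. A further 16 columns of values per ranking input were not used. Sequence was read from the RefSeq copy of the release 6 genome, which has the coordinates of dm6. Counting was tested on simulated data. All 18 pathway names matched. No test was made over the members.

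Members and lists were chosen with earlier results of these data known. Named were members with an own or neighbouring summit in the series or a replicate list, the 5 highest ranked of the others, and the rest by class. Alternatives were other lists, stricter thresholds, other windows, TSS choices and neighbour distances.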

Additional observations from a re-analysis of the deposited data

How the results depend on the processing

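The count of 9 of 48 members with an own summit (18.8%, all genes 18.7%) was 4 at a global IDR of at most 0.0001 (all genes 1257, or 9%). Without 1 replicate it ran from 6 to 8 (all genes 12.1% to 15.5%). In the conservative list it was 10 (all genes 17.7%), and with any base of the peak in the window 9 (19.8%). Windows of 250 and 1000 bp gave 9 each (15.1% and 21.6%). The 5′-most TSS alone gave 8 (16.8%). Peaks of q at most 0.05 also gave 8 (16.1%), a setting added after the data were seen. The count of 3 members with a neighbouring summit (all genes 5.58%) rested more on definitions. Without 1 replicate it ran from 1 to 3 (all genes 3.39% to 4.58%), and at the stricter IDR it was 1 (2.31%). It was 5 with a window of 1000 bp (5%), 0 with neighbours within 1 kb (1.63%) and 13 within 5 kb (19.7%). It was 9 for summits inside the gene or within 2 kb of its ends (all genes 11.4%), also added after the data were seen. Members with a ranked entry numbered 33 in the ranking behind the conservative list (68.8%, all genes 75.6%). They numbered 35 in the ranking behind the series' list (72.9%, all genes 76.7%). Replicate 1 gave 31 (64.6%, all genes 60.8%) and replicate 2 gave 26 (54.2%, all genes 61.5%). In the window of 100 bp on either side of the TSS the DRE letters were at 9 members (all genes 7.83%). TAATTA was at 2 (9.94%) and GAGAG at 4 (22.5%). Of the 9 members with an own summit, 4 held the DRE letters in this narrower window (44.4%), down from 6 (66.7%) in the main one. No paired analysis was possible because there is 1 group. With 2 replicates and no read counts, a missing summit cannot be told apart from a shallow library, and each small count shifts with a single gene.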
